A study of Rattus norvegicus with 6 samples.

Results

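The lncRNAs described here were listed with a value above 0 in every control INS-1 sample and with a value of 0 in every HG/PA-treated sample. They are called lost lncRNAs below, a name that stands for this pattern in the tables only. There were 50 of them among 18649 listed lncRNAs. Because the members were selected on the values of both groups, their values are given as a description, and no test of them is used. With 1 sample left out the rule becomes less strict, and it then held for 79, 85 and 81 lncRNAs without Con 1, 2 and 3, and for 90, 105 and 109 without HG/PA 1, 2 and 3.

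INS-1 cells are an insulin-secreting line derived from a rat insulinoma and often stand in for pancreatic beta cells. The sample labels give the strain as Wistar and the tissue as pancreatic islet. The control group (Con) held 3 samples of INS-1 cells labelled as controls. Neither their vehicle nor their time in culture is stated. The HG/PA group held 3 samples of the same line exposed to 25 mM glucose and 0.5 mM palmitate for 24 h, a treatment used to bring about glucolipotoxicity. Total RNA was sequenced from strand-specific paired-end libraries to compare lncRNA expression between these groups. All samples come from 1 cell line, and the study describes the sequencing as done in biological triplicate. The labels do not say whether the 3 samples of a group were separate cultures, so p-values below measure the spread between these samples, which may be technical. Protein-coding genes, among them beta cell markers, were not analysed here, so the labelled cell type was not checked against its markers.

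Long non-coding RNAs are transcripts that are not translated into protein, and many are expressed at low levels and in few cell types. Some act in the nucleus on the transcription of neighbouring genes, and others bind proteins or microRNAs. In beta cells, prolonged exposure to high glucose together with saturated fatty acids such as palmitate impairs insulin secretion and can lead to cell death, which is what the term glucolipotoxicity refers to.

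The deposited values are FPKM, the number of fragments per kilobase of transcript, scaled to 1000000 fragments. In each sample, FPKM multiplied by transcript length gave whole multiples of 1 step for 99.9% or more of the values (within 0.1 step), and hence the number of fragments behind each value. The steps implied totals of 13770572, 12491552 and 12529009 fragments in Con 1, 2 and 3. The HG/PA samples had implied totals of 12656972, 13688861 and 13187356 fragments. The listed lncRNAs held 1331555, 1201514 and 1164564 of the fragments in Con 1, 2 and 3, and 1128838, 1199658 and 1215753 in HG/PA 1, 2 and 3. Between 17248 and 17317 lncRNAs were above 0 in a Con sample, and between 17371 and 17435 were above 0 in an HG/PA sample.

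The lost lncRNAs made up 0.311% of the 16094 lncRNAs above 0 in every Con sample. The mirrored pattern, with 0 in every Con sample and a value above 0 in every HG/PA sample, was found for 87 lncRNAs, or 0.536% of the 16220 above 0 in every HG/PA sample. Of the 246 lncRNAs at 0 in every HG/PA sample, 50 (20.3%) were above 0 in all 3 Con samples, 95 in 2 of them and 101 in 1 of them. At least 10 Con fragments were held by 10 of the 50, 19 of the 95 and 38 of the 101. The 19 and the 38 were thus well covered in some Con samples while at 0 in others. Of the 328 lncRNAs at 0 in every Con sample, 87 (26.5%) were above 0 in every HG/PA sample. The number with the mirrored pattern was thus above the number lost. Whether these numbers differ beyond chance was not tested.

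Most of the lost lncRNAs rested on few fragments. Summed over the 3 Con samples, they held from 3 to 73 fragments each, with a median of 5, against a median of 48 for the 16044 other lncRNAs above 0 in every Con sample. Of the 50, 9 had a single fragment in each Con sample, 30 (60.0%) had at most 5 fragments in all, and 40 (80.0%) had at most 9. In 38 of the 50, at least 1 Con sample held a single fragment. Only 6 held at least 3 fragments in every Con sample, and 14 of the 87 mirrored lncRNAs held as many in every HG/PA sample. The 4 lost lncRNAs with the most fragments held 195 of the 452 Con fragments of the whole set (43.1%), and the 12 with the most held 284 (62.8%). Together, the 50 had 150, 145 and 157 fragments in Con 1, 2 and 3, or 10.9, 11.6 and 12.5 per 1000000 of the implied total (11.7 ± 0.821, SD, n = 3). These are bulk samples, in which fewer cells expressing a lncRNA and less RNA per cell cannot be told apart.

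The share of lncRNAs that were lost depended on how many fragments they had in the Con samples. Among lncRNAs above 0 in every Con sample, 9 of 358 with 3 Con fragments were lost (2.51%), and 21 of 691 with 4 or 5 (3.04%). The share was 0.784% with 6 to 9 fragments (10 of 1275) and 0.281% with 10 to 19 (6 of 2133). It was 0.0798% with 20 to 49 fragments (3 of 3761) and 0.0127% with 50 or more (1 of 7876). The mirrored pattern also became rarer with more fragments, from 5.84% of 377 lncRNAs with 3 HG/PA fragments to 0.0400% of 7509 with 50 or more. In each of these 6 classes the mirrored share was above the lost share, as shown in the plot of both patterns by number of fragments. A lncRNA expected at a few fragments per sample can be listed at 0 by counting error, and how many of the 50 this concerns was not tested.

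**Figure D1:**
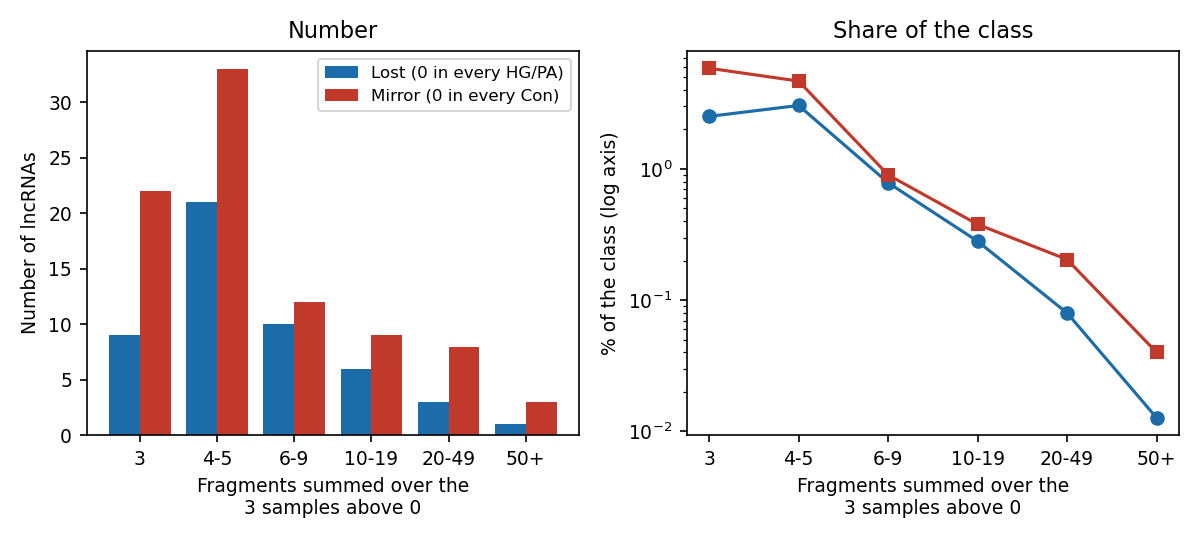
lncRNAs that follow the lost pattern (blue) or the mirrored pattern (red), by the number of fragments summed over the 3 samples in which they are above 0. The left panel gives their number, and the right panel gives their share, on a log axis, of all lncRNAs above 0 in every sample of that group in the same class; the lost share goes from 2.51% at 3 fragments to 0.0127% at 50 or more.

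The lost lncRNA with the most fragments was NONRATT019925.2, at chr3:160237659-160238205 of Rnor_6.0. Its FPKM was 3.45, 2.78 and 4.09 in Con 1, 2 and 3 (3.44 ± 0.653, SD, n = 3), from 26, 19 and 28 fragments, and 0 in each HG/PA sample. All 3 Con samples were at similar levels, and its mean Con FPKM exceeded that of 67.2% of the lncRNAs above 0 in every Con sample. Its length of 547 nt equals its genomic span, so the listed transcript has no intron. Against a floor of 3 fragments over the 3 HG/PA samples together, it was at least 24.8-fold lower in the HG/PA-treated cells. Such bounds allow for counting error in the HG/PA zeros only, take the Con count without error and each listed 0 as 0 fragments, and restate values on which the members were selected.

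NONRATT000494.2, at chr1:82413190-82418097, had 23, 9 and 11 fragments in the Con samples, an FPKM of 2.11, 0.910 and 1.11 (1.38 ± 0.643, SD, n = 3). Con 1 was the highest of these samples, and no fragment was listed in the HG/PA samples, at least 14.6-fold lower. NONRATT004541.2, at chr10:59819077-59824202, had 12, 10 and 20 fragments and an FPKM of 1.89, 1.74 and 3.46 (2.36 ± 0.955, SD, n = 3). Here Con 3 was the highest, and the lower bound was 14.3-fold. NONRATT000356.2, at chr1:72463213-72464465, had 8, 19 and 10 fragments and an FPKM of 1.08, 2.82 and 1.48 (1.79 ± 0.913, SD, n = 3). In this lncRNA Con 2 was the highest, and the lower bound was 12.6-fold. These 3 transcripts are spliced, with lengths of 792, 461 and 539 nt. Together with NONRATT019925.2 they were the only lost lncRNAs with a mean Con FPKM of at least 1 and the only ones with 20 or more Con fragments.

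**Figure D2:**
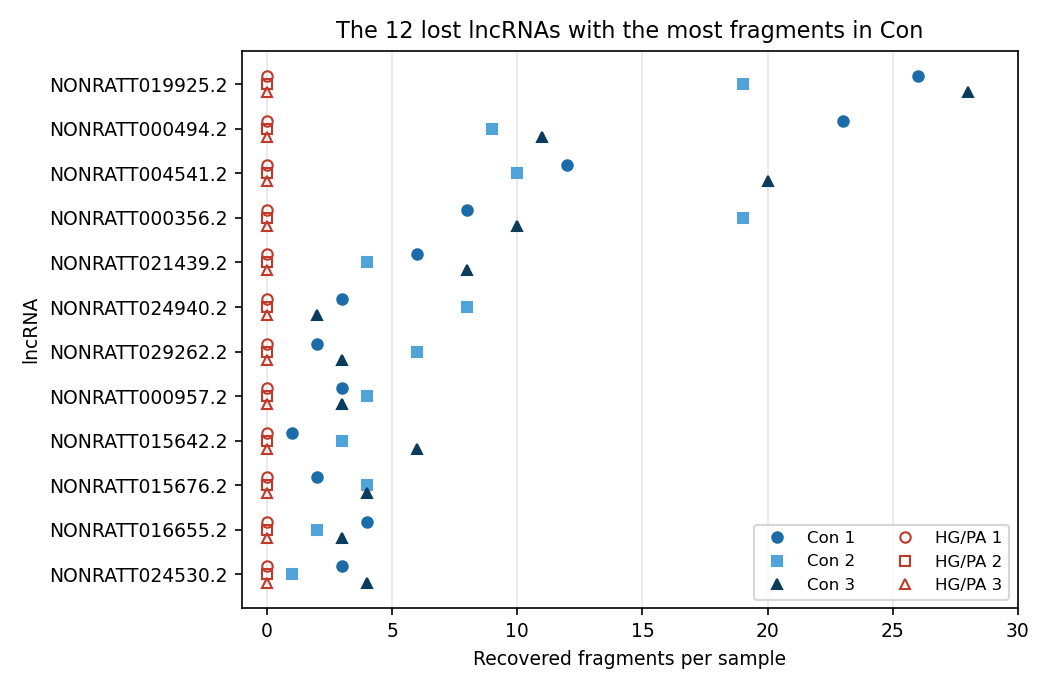
Recovered fragments per sample (horizontal axis) of the 12 lost lncRNAs with the most fragments in the Con samples (vertical axis). Filled blue points are Con 1, 2 and 3 and open red points are HG/PA 1, 2 and 3, which are all at 0 by the rule that selected these lncRNAs; the highest Con point is the 28 fragments of NONRATT019925.2 in Con 3.

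Below these, NONRATT021439.2, at chr4:85123953-85129672, had 6, 4 and 8 fragments in the Con samples (FPKM 0.299, 0.220 and 0.439). NONRATT024940.2, at chr6:43123984-43141479, had 3, 8 and 2 fragments (FPKM 0.116, 0.340 and 0.0847), and its transcript of 1885 nt is the longest of the set. NONRATT029262.2, at chr9:23376695-23377081, had 2, 6 and 3 fragments (FPKM 0.375, 1.24 and 0.619). In the latter pair Con 2 held more fragments than the other Con samples together.

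NONRATT000957.2, at chr1:157743660-157747158, held 3, 4 and 3 fragments (FPKM 0.321, 0.472 and 0.353), the most even of the leading members besides NONRATT019925.2 by the ratio of SD to mean FPKM. NONRATT015642.2, at chr2:205542764-205546244, held 1, 3 and 6 fragments (FPKM 0.187, 0.619 and 1.23). NONRATT015676.2, at chr2:209160947-209186415, held 2, 4 and 4 fragments (FPKM 0.188, 0.414 and 0.412). Each of these 3 had 10 Con fragments in all, and no fold is given for these or other members with fewer than 20. NONRATT016655.2 and NONRATT024530.2 came next, with 4, 2 and 3 fragments (FPKM 0.393, 0.216 and 0.324) and 3, 1 and 4 fragments (FPKM 0.298, 0.110 and 0.437). In NONRATT024530.2 Con 2 held a single fragment.

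At the other end of the set, 9 lost lncRNAs had 1 fragment in each Con sample, which is the floor itself. The first of them by identifier were ENSRNOT00000079518, ENSRNOT00000087000 and NONRATT002476.2. The lowest mean FPKM, 0.0433, was that of NONRATT012538.2, with an FPKM of 0.0405, 0.0447 and 0.0446 from 1 fragment in each Con sample on a transcript of 1792 nt. Over the set, mean Con FPKM ranged from this value to 3.44 with a median of 0.207, against a median of 1.92 for the other lncRNAs above 0 in every Con sample. In the plot of mean Con FPKM against length, these 9 lie on the line of 1 fragment per sample and the others lie above it.

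**Figure D3:**
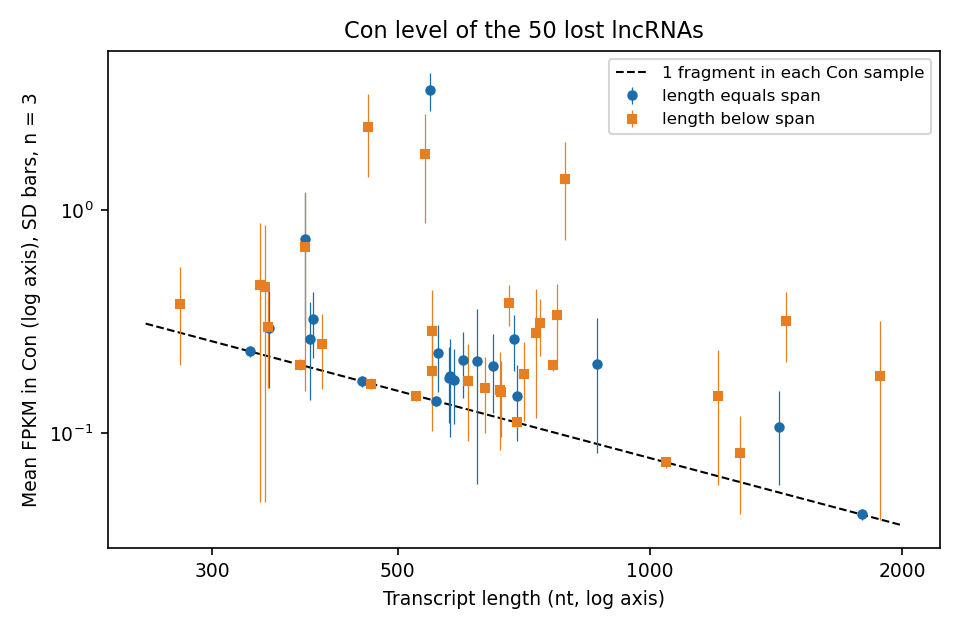
Mean FPKM in the Con samples (vertical, log axis) against transcript length in nt (horizontal, log axis) for the 50 lost lncRNAs, with bars for the SD (n = 3; bars that would reach 0 are shortened). Blue circles are transcripts whose length equals their genomic span, orange squares are spliced transcripts, and the dashed line is the FPKM that 1 fragment in each Con sample gives at that length; the 4 points above an FPKM of 1 are the 4 members with the most fragments.

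Just outside the rule were 75 lncRNAs above 0 in every Con sample with a single fragment in the 3 HG/PA samples together. The one with the most Con fragments was NONRATT020090.2 on chromosome 4, with 1, 38 and 38 fragments in Con 1, 2 and 3, compared with 0, 1 and 0 in HG/PA 1, 2 and 3 (FPKM 0.113, 4.72 and 4.70 against 0, 0.113 and 0). Its Con 1 and HG/PA 2 values are the same single fragment per sample, so the groups overlap. NONRATT025537.2 on chromosome 7 had 13, 5 and 8 fragments against 0, 0 and 1, and NONRATT005868.2 on chromosome 10 had 2, 7 and 4 against 0, 0 and 1. In both of these, every HG/PA sample was below every Con sample. Just inside the rule, the members with 1 fragment in each Con sample would leave the set with 1 fragment less in any of them. Requiring at least 3 fragments in every Con sample left 6 members, and allowing up to 1 fragment in each HG/PA sample gave 485.

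A value of 0 in a single sample was also found where other samples of the group were well covered. In the Con group, 99 lncRNAs were at 0 in 1 sample with at least 10 fragments in each of the others, and in the HG/PA group the number was also 99. Another 120 lncRNAs in the Con group and 82 in the HG/PA group had at least 10 fragments in 1 sample and 0 in the others. Of the former 99 in each group, 53 (53.5%) and 54 (54.5%) overlapped another listed lncRNA, against 30.4% of all listed lncRNAs. An example, chosen after its values were seen, is NONRATT020464.2, which overlaps the lost NONRATT020463.2 and had 92, 104 and 54 fragments in Con against 73, 77 and 0 in HG/PA. Whether such zeros come from the assignment of fragments among overlapping transcripts was not tested. Of the 50 lost lncRNAs, 9 (18.0%) overlapped another listed lncRNA, and none of the 7 with the most fragments did. Overlap was counted against listed lncRNAs only, and overlap with protein-coding genes was not examined.

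The lost lncRNAs lay on 16 of the 21 chromosomes in the tables, with 11 (22.0%) on chromosome 1, which held 12.2% of all listed lncRNAs. Chromosomes 11, 12, 16, 19 and X held none. No pair of them lay within 1000000 bases of each other, and the closest pair, NONRATT001075.2 and NONRATT001104.2 on chromosome 1, was 2717219 bases apart. Their lengths had a median of 591.5 nt and ran between 275 and 1885 nt, against a median of 672 nt for the other lncRNAs above 0 in every Con sample. In 20 (40.0%) the length equalled the genomic span, against 47.5% of those others. Both differences had the opposite direction among lncRNAs with at most 9 Con fragments, where the median length was 591.5 nt in 40 members and 468 nt in 2284 others, and 45.0% and 41.1% had a length equal to their span. The median genomic span was 1146.5 bases in the members and 1415 bases in the others.

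Of the 50 identifiers, 43 were from NONCODE and 7 (14.0%) were Ensembl transcripts, against 2.72% Ensembl transcripts among the other lncRNAs above 0 in every Con sample. Among such lncRNAs with at most 9 Con fragments, 126 of 2284 (5.52%) were Ensembl transcripts, and among the 40 lost lncRNAs with at most 9 fragments 7 (17.5%) were. Among the 87 mirrored lncRNAs 8 (9.20%) were. The Ensembl members had few fragments. ENSRNOT00000092014 had the most, with 2, 3 and 2 in Con 1, 2 and 3 (FPKM 0.211, 0.349 and 0.232), and ENSRNOT00000088794, the shortest member at 275 nt, had 1, 2 and 1. The differences in length, splicing, position and source are descriptions of a set of 50 and were not tested. The tables give no gene names for these identifiers, and none of the 50 matched the RefSeq tables at hand, which are of another assembly (GRCr8), so no gene name or sequence is given for them.

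To ask whether the surroundings of the lost lncRNAs also changed, the other listed lncRNAs at the same places were examined. Their values were not used by the rule, although a transcript that overlaps a member can share fragments with it. Limma on log2(FPKM + 0.1) was fitted over the 17558 lncRNAs that reached an FPKM of 0.1 in 3 or more samples, so fold changes are on that scale and understate the change of low lncRNAs. With changes of 2-fold or more and an adjusted p below 0.05, 146 (0.832%) were lower and 115 (0.655%) were higher in the HG/PA-treated cells. Without Con 1, 2 and 3 the lower calls numbered 46, 37 and 37 and the higher calls 73, 60 and 66. Without HG/PA 1, 2 and 3 there were 52, 53 and 88 lower and 30, 26 and 33 higher calls, so these shares are no fixed background. After rescaling by the median of ratios the numbers over all 6 samples were 90 lower and 135 higher. That rescaling moved the median over every tested lncRNA, a log2 fold change, from -0.11 to 0.01. Of the lost lncRNAs, 43 passed this filter through their Con values alone and 7 did not, and 20 of the 43 were called lower. Nothing is read from that count, since the members were selected on this contrast.

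Overlapping the lost lncRNAs were 14 other listed lncRNAs, at 9 of the 50, of which 11 were tested. Limma called none of the 11 lower or higher, against 0.832% and 0.655% of all tested lncRNAs, so a count of 0 says little here. None had an unadjusted p below 0.05 in limma in either direction, against 11.8% of all tested lncRNAs lower and 5.55% higher. Limma-voom on the recovered fragments also called none. Their median log2 fold change was -0.39, or -0.28 once the median over every tested lncRNA is taken off, and 10 of the 11 were within 2-fold, as were 89.0% of all tested lncRNAs. The median depended on single samples and was -0.13 without HG/PA 3, -0.18 without Con 1 and -0.26 without Con 2. Every HG/PA sample was below every Con sample in 1 of the 14, against 15.3% of all listed lncRNAs.

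Within 10 kb of a lost lncRNA, but not overlapping one, lay 40 listed lncRNAs at 23 of the 50, and 39 of them were tested. These are not independent, since 10 of the 40 lay beside NONRATT020463.2 alone. Limma called none of the 39 lower or higher, against 0.832% and 0.655% of all tested lncRNAs, so a count of 0 says little here. At an unadjusted p below 0.05 in limma, 4 were lower and 1 was higher, against 11.8% and 5.55% of all tested lncRNAs. Limma-voom called none. Their median log2 fold change was -0.13, which is -0.01 relative to all tested lncRNAs, and 37 of the 39 (94.9%) were within 2-fold. Without Con 2 the median was -0.02, and without HG/PA 1 it was 0.05. Every HG/PA sample was below every Con sample in 5 of the 40 and above every Con sample in 3, against 15.3% and 7.19% of all listed lncRNAs. No listed lncRNA lay within 10 kb of the remaining 25 lost lncRNAs of the 50, while 33.4% had no such neighbour among the other lncRNAs above 0 in every Con sample. That share was 51.7% among the 87 mirrored lncRNAs. With at most 9 Con fragments it was 52.5% in the members and 41.9% in the others.

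**Figure D4:**
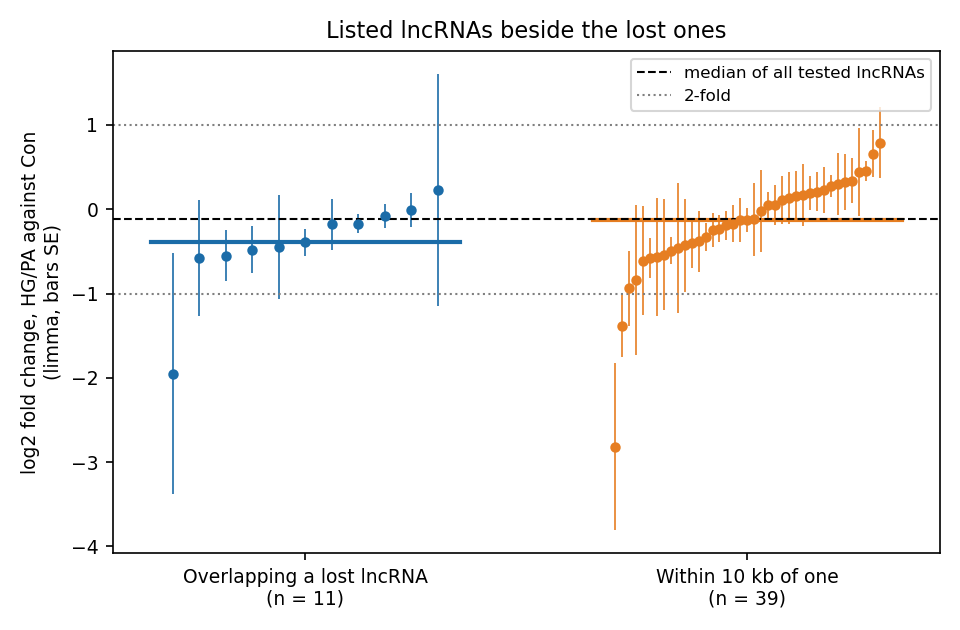
Log2 fold change between HG/PA and Con on the log2(FPKM + 0.1) scale (vertical axis, points with standard errors from limma) of the 11 tested lncRNAs that overlap a lost lncRNA and the 39 within 10 kb of one. Short solid lines are the medians of -0.39 and -0.13, the dashed line is the median of all 17558 tested lncRNAs (-0.11) and dotted lines mark 2-fold; most points lie within 2-fold.

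The neighbours below were chosen after their values were seen, for their closeness to leading members or the size of their change. NONRATT019926.2, which begins 328 bases beyond the end of NONRATT019925.2, had 65, 69 and 41 fragments in Con 1, 2 and 3, compared with 65, 71 and 63 in HG/PA 1, 2 and 3. The groups overlapped, and its log2 fold change was 0.19 (SE 0.20, adjusted p = 0.68 from limma). The member with the most fragments was thus listed at 0 in every HG/PA sample while its closest listed neighbour was measured in all 6 samples. Beside NONRATT000356.2, NONRATT000355.2 (938 bases away) had 42, 33 and 35 fragments in Con against 31, 29 and 28 in HG/PA. Every HG/PA sample was below every Con sample, with a log2 fold change of -0.33 (SE 0.17, adjusted p = 0.38 from limma).

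Closest of all to a leading member was NONRATT015555.2, 33 bases from NONRATT016655.2, with 7, 3 and 4 fragments in Con against 2, 5 and 8 in HG/PA. These low values overlapped between the groups (log2 fold change -0.02, SE 0.49, adjusted p = 0.99 from limma). NONRATT016753.2, 121 bases from NONRATT015676.2, had 80, 57 and 64 fragments in Con against 47, 53 and 44 in HG/PA. Here every HG/PA sample was below every Con sample, with a log2 fold change of -0.49 (SE 0.16, adjusted p = 0.18 from limma).

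The lowest fold change among the neighbours within 10 kb was that of NONRATT015639.2, 8550 bases from NONRATT015642.2. It had 121, 121 and 103 fragments in Con 1, 2 and 3, compared with 94, 6 and 7 in HG/PA 1, 2 and 3. HG/PA 1 was thus near the Con samples and far above the other HG/PA samples. Its log2 fold change was -2.82 (SE 0.99, adjusted p = 0.21 from limma), and without HG/PA 1 it was -4.10 with an adjusted p of 0.0027 from limma. Over all settings tried, limma's adjusted p for this lncRNA lay between 0.0027 and 0.41. Between it and NONRATT015642.2 lies NONRATT015641.2, with 16, 11 and 23 fragments in Con against 29, 15 and 19 in HG/PA. These values overlapped between the groups (log2 fold change 0.30, adjusted p = 0.73 from limma).

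NONRATT017443.2, 5379 bases from ENSRNOT00000087000, had 13, 15 and 15 fragments in Con against 9, 4 and 4 in HG/PA. All HG/PA samples were below the Con samples (log2 fold change -1.38, SE 0.37), but limma's adjusted p was 0.12. In the other direction, NONRATT021422.2, near NONRATT020463.2, had 765, 699 and 540 fragments in Con against 850, 930 and 982 in HG/PA. All HG/PA samples were above the Con samples (log2 fold change 0.45, adjusted p = 0.13 from limma).

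Within the wider distance of 50 kb, 2 of 101 tested lncRNAs were called lower, against 0.832% of all tested lncRNAs. Both lay beside NONRATT017027.2, which had 2 fragments in each Con sample. NONRATT017030.2, 22216 bases away, had 19, 19 and 34 fragments in Con against 1, 3 and 3 in HG/PA (log2 fold change -3.08, adjusted p = 0.019 from limma). NONRATT017031.2, 22335 bases away, had 27, 19 and 28 fragments in Con against 1, 0 and 2 in HG/PA (log2 fold change -3.54, adjusted p = 0.013 from limma). Both were lower in 3 of 3 HG/PA samples. Their spans overlap each other, so they can share fragments. In limma, the adjusted p of NONRATT017030.2 was from 0.052 to 0.074 with each of the 6 samples left out in turn, and over all settings it lay between 0.015 and 0.074. For NONRATT017031.2, the adjusted p in limma was 0.061 without Con 1, 0.056 without Con 3, 0.052 without HG/PA 1 and 0.062 with a pseudocount of 0.01, within a range of 0.0088 to 0.069 over all settings.

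Among the 12 leading members, NONRATT000957.2 and NONRATT015676.2 overlap other listed lncRNAs. NONRATT015676.2 shares its span with 4, of which NONRATT015677.2 had 67, 76 and 68 fragments in Con against 68, 73 and 63 in HG/PA. That transcript was measured at overlapping levels in both groups (log2 fold change -0.08, SE 0.14, adjusted p = 0.83 from limma). NONRATT015679.2 had 23, 12 and 23 fragments against 13, 14 and 13 (log2 fold change -0.48, adjusted p = 0.44 from limma). The others were listed in 1 sample each, NONRATT015678.2 with 11 fragments in Con 1 and NONRATT015680.2 with 5 in HG/PA 3. Summed with the member, the 4 transcripts held 103, 92 and 95 fragments in Con against 81, 87 and 81 in HG/PA, or 7.48 ± 0.109 and 6.30 ± 0.138 per 1000000 of the implied total (SD, n = 3 each). These sums include the member, whose values were fixed by the rule, so no p is given for them. Without the member the sums were 7.21 ± 0.151 and 6.30 ± 0.138 per 1000000 (SD, n = 3 each), and every HG/PA sum was below every Con sum, with p = 0.10 in a two-sided exact permutation test, the smallest p that 3 samples against 3 allow. The member's 10 fragments were thus a small part of the fragments at this place, most of which were still listed in the HG/PA samples.

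NONRATT000957.2 overlaps NONRATT000958.2, which had 0 fragments in each Con sample against 1, 2 and 0 in HG/PA 1, 2 and 3. Summed, the pair held 3, 4 and 3 fragments in Con against 1, 2 and 0 in HG/PA, where all Con fragments are those of the member. The overlapping transcript on its own gave p = 0.40 in a two-sided exact permutation test. The tables hold no strand, so whether the transcripts of such a pair lie on the same strand is not known here.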

How the data were processed

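RNA was sequenced from 3 Con and 3 HG/PA samples of INS-1 cells. The authors filtered the reads with seqtk (rRNA, adapters, low quality), aligned them to Rnor_6.0 by HISAT2, and deposited FPKM values from StringTie, 1 table per sample, with the position and length of each lncRNA. The authors used edgeR for differential expression. For RNA extraction the labels name a column kit and the methods name TRIzol.

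Samples were grouped by their titles. Fragments were recovered from FPKM and length as described, and the implied total was taken as the depth; it is not stated by the authors. A floor of 3 fragments over a group was used for lower bounds. limma 3.58.1 in R 4.3.3 (lmFit, eBayes with a trend) was run on log2(FPKM + 0.1) without further scaling. The filter was an FPKM of 0.1 in at least 3 samples, with Benjamini-Hochberg adjustment over all tested lncRNAs. A trial of this fit on simulated fragments changed only better covered lncRNAs, so it does not cover lncRNAs with few fragments. Python 3.11.15 with numpy 2.4.6, pandas 2.3.3 and scipy 1.17.1 was used for the other steps. Fragments on lncRNAs overlapping a leading member, without the member, were compared by two-sided exact permutation tests.

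Overlap meant at least 1 shared base of genomic span (the tables give no strand), and nearby meant within 10 kb. Named members were the 12 with the most Con fragments, the 5 with the highest mean Con FPKM, 3 with the fewest Con fragments, and up to 5 Ensembl transcripts by Con fragments, with ties broken by identifier. The 3 lncRNAs with 1 HG/PA fragment and the most Con fragments were named as just outside. Up to 2 overlapping lncRNAs of each leading member were chosen for naming, and the others overlapping NONRATT015676.2 were also named. Any neighbour past the adjusted threshold was named too. NONRATT012538.2 was named after its values were seen. NONRATT001075.2 and NONRATT001104.2 were named as the closest pair, and NONRATT017027.2 and NONRATT020463.2 for the lncRNAs beside or overlapping them. The members and lists were chosen with earlier results of these data known. The alternatives were other pseudocounts, filters, rescaling, distances, a stricter overlap and detection limits. They also included limma without a trend, a replicate block, limma-voom on recovered fragments, and leaving out each sample.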

Additional observations from a re-analysis of the deposited data

How the results depend on the processing

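The number of lost lncRNAs (50) was 6 with at least 3 fragments required in every Con sample, 485 with up to 1 fragment allowed in each HG/PA sample, and from 79 to 109 with each sample left out. Under the same changes, mirrored, the number with the opposite pattern (87) was 14, 548 and from 123 to 155. The rule asks less when a sample is left out, so these numbers can only be larger.

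The lncRNAs called lower by limma (146) were 93 with a pseudocount of 1, 90 after median-of-ratios rescaling, 84 without a trend and from 37 to 88 with each sample left out. Those called higher (115) were 64 with a pseudocount of 1 and from 26 to 73 with each sample left out. With the replicate number as a replicate block, 6 were called lower and 7 higher. Deviations from the group means were not shared by same-numbered samples (correlations from -0.0322 to -0.0144), and 0 of 6 samples correlated best with their own number, so the numbers were not taken as pairs.

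No overlapping lncRNA was called in any setting, and none of those nearby was called higher. In the main fit only 0.832% of all tested lncRNAs were called lower and 0.655% higher. Counts of 0 among the 11 overlapping and 39 nearby lncRNAs tested there therefore say little about these places. The nearby number called lower (0) was from 0 to 1 with each sample left out and 2 within 50 kb. The overlapping median (-0.39) was -0.16 with a pseudocount of 1, -0.26 after rescaling and from -0.39 to -0.13 with each sample left out. It was -0.45 with an overlap of at least 50% of the shorter span. Relative to all tested lncRNAs it was -0.28 before rescaling and -0.27 after it. The nearby median (-0.13) was -0.04 with a pseudocount of 1, -0.04 with a filter at an FPKM of 1, 0.00 after rescaling and from -0.17 to 0.05 with each sample left out. Rescaling shifts all lncRNAs of a sample together, and the nearby median relative to all tested lncRNAs was -0.01 with and without it. Apart from this and the effect of fewer samples, the cause of these moves was not tested. With depth taken as the fragments on listed lncRNAs, the lower bounds were slightly lower, such as 23.3-fold in place of 24.8-fold for NONRATT019925.2. Of the 50, 40 rested on at most 9 fragments, and the effect of depth itself was not tested.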
